A study of Mus musculus with 3 samples.

Results

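A set of 10 genes of elastic fibres and microfibrils was followed in stromal cells sorted from mouse epididymal fat. They were chosen by name as members of this system, with earlier results of these data known, and are Fbn1, Fbn2, Mfap2, Mfap5, Eln, Fbln1, Fbln2, Fbln5, Efemp1 and Efemp2. All 10 were found among the 27179 genes of the deposited count table through their NCBI gene IDs. The series holds 1 group of 3 RNA-seq libraries, called library 1, 2 and 3 after the numbers in the sample labels. The cells came from the epididymal adipose tissue of 3 naïve wild type male mice of strain C57B6, aged 12 weeks, after collagenase digestion. Living cells were kept that carried PDPN, Sca1 and CD140a at their surface and did not carry Ter119, CD31 or CD45. There was no second genotype, treatment, depot or cell type, so genes were compared within a library and libraries with each other. Whether a library stands for 1 mouse is not stated, so differences between libraries, and any p-value from them, may be partly technical. The study set out to characterise the transcriptome of adipose progenitors.

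Elastic fibres give tissues recoil. They have a core of elastin, encoded by Eln, that is crosslinked by lysyl oxidases on a scaffold of microfibrils built from fibrillins. Microfibril-associated glycoproteins sit on the fibrillins, fibulins bring elastin to the scaffold, and latent TGF-beta binding proteins tether growth factor to it. In mice, elastin production belongs mainly to late fetal and early postnatal growth, and the fibres turn over slowly. Fibroblasts and smooth muscle cells make them. The end of the fibrillin-1 precursor is also released as the hormone asprosin, which white fat secretes.

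The libraries held 25060096 to 32813373 counts. Levels are given as CPM, that is, counts scaled to library size, adjusted by a TMM factor of 0.967 to 1.03. The detection limit, set at 3 counts in a library, was 0.0945 to 0.119 CPM. It covers counting error only, since PCR copies are not independent molecules. Genes of the selected surface proteins were present in every library. Ly6a stood at 3254 ± 441, Pdgfra at 1484 ± 14.5 and Pdpn at 119 ± 31.9 CPM (SD, n = 3). Pecam1 had 1, 1 and 2 counts. Markers of other cells were checked as whole lists. Of 8 endothelial, 8 macrophage and 8 mature adipocyte genes, 0 stood at 1 CPM or more throughout, and their summed levels ranged over 0.158 to 0.393, 0.179 to 3.92 and 2.11 to 9.99 CPM. Esam, C1qb, Adipoq and Cidec had 0 counts throughout. Some macrophage and adipocyte genes passed 1 CPM in 1 or 2 libraries. Cfd had 215, 0 and 0 counts, Retn 2, 164 and 0, and Plin4 67, 72 and 0. Lep had 5, 3 and 58, Csf1r 2, 55 and 4, and Cd68 7, 43 and 0. Of 10 mural genes, 3 reached 1 CPM in every library (summed level 40.4 to 49.5 CPM), among them Myl9 and Des. Rgs5 had 0 counts and Myh11 9 in all. Of 10 mesothelial genes, 2 reached it, Wt1 and Nkain4 (summed level 175 to 239 CPM), while Msln and Upk3b had 4 and 2 counts in all. Most of that sum was Wt1, at 154, 222 and 217 CPM, so it rests mainly on 1 gene. The part of mural and mesothelial RNA in the levels below was not tested. Ptprc, which encodes the excluded CD45, stood at 5.42, 15.8 and 7.68 CPM. In such pooled cells, fewer cells of a type and less RNA per cell cannot be told apart.

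Of the 10 genes, 9 were detected, all but Fbn2, that is, they reached 1 CPM or more in every library. The same held for 35.0% of all genes in the table and 43.7% of its protein-coding genes. Together the 10 genes took 1.53%, 1.57% and 1.69% of all counts in libraries 1, 2 and 3. Their median gene stood at 556 CPM, against 0.108 CPM for the median of all genes. The latter lies at the detection limit of 0.0945 to 0.119 CPM and covers genes that do not code for protein. To compare genes with each other, CPM were divided by the length of all annotated exons of a gene in kilobases. On that scale Mfap5 and Efemp1 held 47.7% and 36.2% of the summed level, and the other 8 genes shared the rest. These shares depend on the length used, and were 80.2% and 11.5% with coding length and 46.7% and 20.1% of the summed CPM without length correction.

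**Figure D1:**
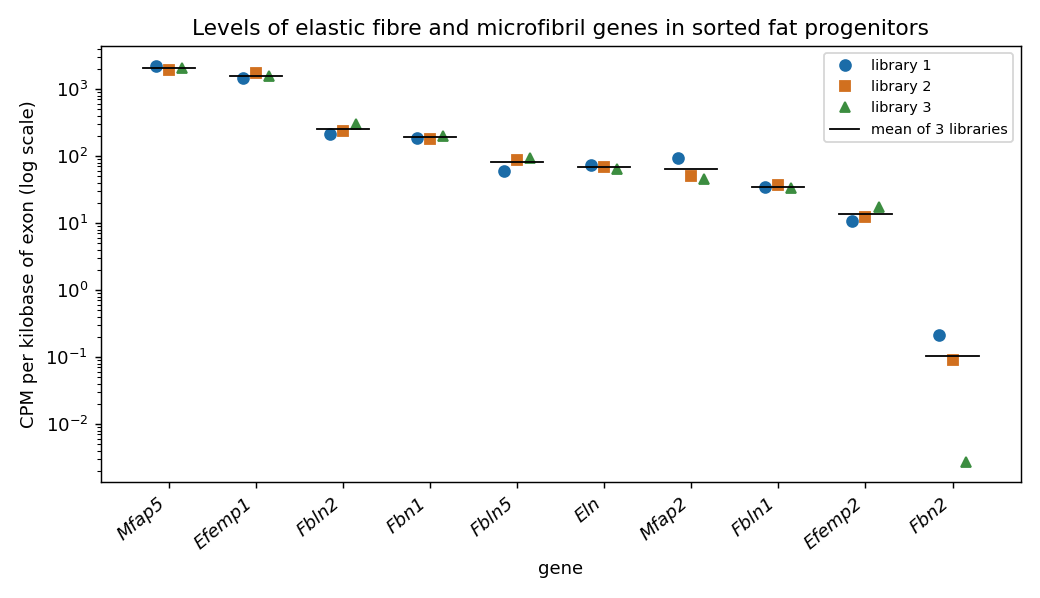
Level of each of the 10 genes in CPM per kilobase of exon (log axis), with 1 point per library and a bar at the mean of 3 libraries. Mfap5 and Efemp1 lie at 1443 or above in every library, and Fbn2 lies at 0.215 or below.

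The order of mean levels per kilobase ran Mfap5, Efemp1, Fbln2, Fbn1, Fbln5, Eln, Mfap2, Fbln1, Efemp2 and Fbn2. Neighbours in this order kept apart in every library except around elastin. The values of Fbln5 and Eln overlapped, as did those of Eln and Mfap2. The gaps between Mfap5 and Efemp1 (lowest 1926, highest 1732 CPM per kilobase) and between Fbln2 and Fbn1 (lowest 211, highest 201) were narrow. Part of the order also rests on the length used. With coding length Fbln5 came before Fbn1, with the longest transcript Eln came before Fbln5, and without length correction Fbn1 came before Fbln2 and Fbln1 before Mfap2.

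Fibrillin transcripts came almost wholly from Fbn1. Fbn1, which encodes the main fibrillin of adult microfibrils, had 2274, 2202 and 2439 CPM, or 187, 182 and 201 CPM per kilobase. These 3 values differed by 1.11-fold at most, a spread of 5.27% of the mean. Fbn2, which encodes the fibrillin made mainly during development, had 90, 30 and 1 counts, or 2.84, 1.19 and 0.0357 CPM. Library 3 was thus below the limit of 3 counts, and the other libraries were above 1 CPM. Over all libraries the level of Fbn1 per kilobase was 1765-fold that of Fbn2, with a 95% exact counting interval of 1477 to 2127. Within libraries 1 and 2 the ratio was 874 (interval 711 to 1087) and 2018 (interval 1413 to 2991). These intervals cover counting error only, and reads copied by PCR are not independent. In library 3, with 1 Fbn2 count, it was 74402 (interval 13353 to 2.94e+06). Fbn1 spans chromosome 2 from 125300594 to 125506485 on the minus strand and Fbn2 chromosome 18 from 58008623 to 58210572, also on the minus strand (GRCm38).

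Both microfibril-associated glycoprotein genes were detected, at levels far apart. Mfap5, whose product MAGP-2 binds fibrillins and, through an integrin-binding motif, cells, had 7996, 6912 and 7487 CPM, or 2228, 1926 and 2086 CPM per kilobase. It ranked at place 18 per kilobase among 16904 protein-coding genes with a length and any count. Mfap2, whose product MAGP-1 is the general glycoprotein of fibrillin microfibrils, had 113, 61.4 and 55.9 CPM, or 93.1, 50.7 and 46.1 CPM per kilobase. Library 1 stood above the others for Mfap2, by 2.02-fold over the lowest. The difference in log2(CPM per kilobase + 0.5) between Mfap5 and Mfap2 was 5.10 ± 0.47 (SD, n = 3), in the same direction in 3 of 3 libraries. An exact two-sided sign-flip permutation test gave p = 0.25, adjusted p = 0.29 over 8 pairs of genes. That is the smallest p that 3 libraries allow, so none of the 8 pairs could pass 0.05. The difference was 6.84 with coding length and 6.67 without length correction.

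Elastin mRNA was present in each library. Eln had 599, 549 and 517 CPM, or 73.9, 67.8 and 63.8 CPM per kilobase, and ranked at place 726 of the same 16904 genes. Its values lay close together, with a spread of 7.42% of the mean. Per kilobase Fbn1 exceeded Eln by 1.47 ± 0.16 in log2 units, with the same sign in each library (p = 0.25 by the exact sign-flip test). The annotated exons of Eln cover 8098 bases, its longest transcript 3853 and its coding part 2580. The difference was 0.42 with the length of the longest transcript, 0.31 with the coding length and 2.05 without length correction.

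The fibulin genes spanned a wide range. Fbln5, which encodes fibulin-5, a protein that tethers elastin to cells and microfibrils and without which mice have loose skin and widened airspaces, had 407, 611 and 654 CPM. Per kilobase it reached 58.9, 88.4 and 94.7 CPM, below Eln in library 1 and above it in libraries 2 and 3. The log2 difference of Fbln5 to Eln was 0.21 ± 0.47 (p = 0.50 by the exact sign-flip test), less than its spread. It turned to -0.62 with the length of the longest transcript and to -0.021 without length correction, so no direction was found.

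Efemp2 encodes fibulin-4, which joins lysyl oxidase to elastin and without which mice form no proper elastic fibres and die around birth. It was the lowest of the detected genes, at 40.7, 45.9 and 66.0 CPM, or 10.8, 12.1 and 17.4 CPM per kilobase. Library 3 was the highest. Fbln5 exceeded Efemp2 by 2.54 ± 0.24 in log2 units per kilobase, in each library (p = 0.25 by the exact sign-flip test), and by 3.44 with coding length or without length correction.

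Efemp1, which encodes fibulin-3, a fibulin of basement membranes and loose connective tissue, had 2938, 3529 and 3163 CPM, or 1443, 1732 and 1553 CPM per kilobase. It ranked at place 25 of the same protein-coding genes. Efemp1 exceeded Efemp2, its closest relative here, by 6.85 ± 0.36 in log2 units per kilobase, a ratio of mean levels of 117, again in each library (p = 0.25 by the exact sign-flip test). This difference was 5.89 with coding length and 5.99 without length correction. Fibulins of the longer kind were also unequal. Fbln2, whose product binds fibronectin and fibrillin-1, had 1343, 1532 and 1942 CPM, and Fbln1, whose product lies in basement membranes and the elastin core, had 152, 159 and 144 CPM. Per kilobase Fbln2 exceeded Fbln1 by 2.82 ± 0.32 in log2 units, in each library (p = 0.25 by the exact sign-flip test). The log2 difference of Fbln1 to Efemp1 was -5.48 ± 0.11 per kilobase, negative in each library (p = 0.25 by the exact sign-flip test), -4.90 with coding length and -4.39 without length correction.

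**Figure D2:**
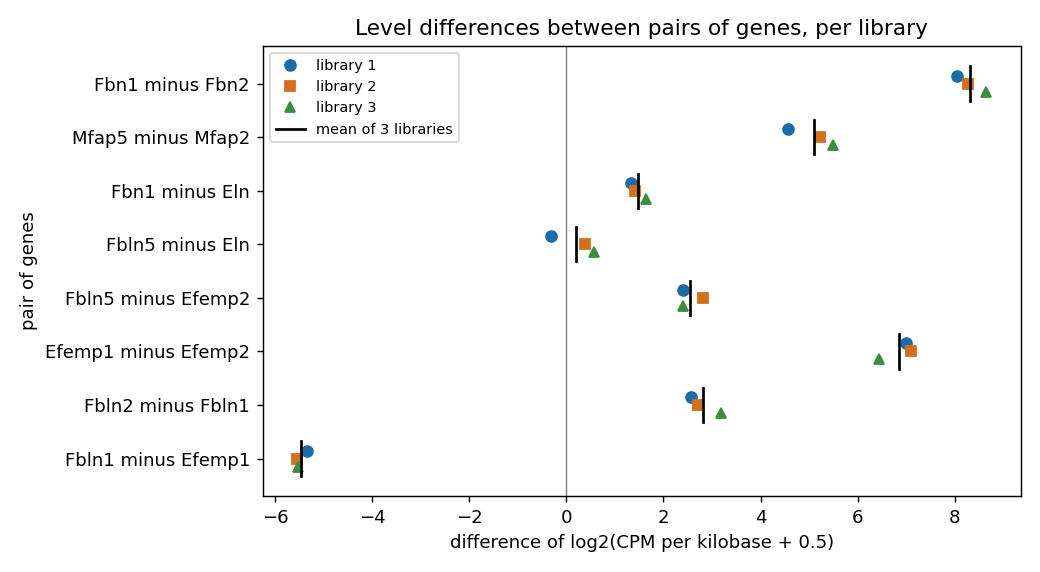
Difference of log2(CPM per kilobase + 0.5) between the first and the second gene of each of 8 pairs, with 1 point per library and a bar at the mean. Fbln5 minus Eln has points on both sides of 0, and every other pair lies on 1 side of 0 in 3 of 3 libraries.

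The start regions of Efemp1 and Efemp2 are shown because this is the pair of related genes with the widest level gap of those whose start regions were both at hand. They come from RefSeq (GRCm38.p6) and run from 250 bases before to 50 bases after the outermost listed start site, both on the plus strand. Efemp1 lies at chr11:28852955-28853254 and Efemp2 at chr19:5473696-5473995. Capitals mark each match on either strand to GGGCGG, the GC box bound by SP factors.
Efemp1: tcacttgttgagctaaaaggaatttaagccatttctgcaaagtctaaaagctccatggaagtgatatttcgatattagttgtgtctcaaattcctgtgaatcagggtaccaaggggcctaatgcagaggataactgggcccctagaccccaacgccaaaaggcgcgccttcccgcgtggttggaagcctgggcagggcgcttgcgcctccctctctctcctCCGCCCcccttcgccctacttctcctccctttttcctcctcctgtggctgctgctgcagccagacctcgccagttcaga
Efemp2: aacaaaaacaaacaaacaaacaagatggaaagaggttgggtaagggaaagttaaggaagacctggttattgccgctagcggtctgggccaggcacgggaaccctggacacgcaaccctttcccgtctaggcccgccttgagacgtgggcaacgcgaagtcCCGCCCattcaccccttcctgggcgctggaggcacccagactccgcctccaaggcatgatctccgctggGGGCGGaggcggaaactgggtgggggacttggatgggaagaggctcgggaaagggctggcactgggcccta
Efemp1 held 1 GC box, and this start region of Efemp2 held 2 GC boxes. Efemp2 has other listed starts at 5474690 and 5474735, whose regions held 5 and 7. The counts do not show which start was used. The set of RefSeq start regions used here held 12 regions for 7 of the 10 genes and had no entry for Mfap5, Eln and Fbn2. GGGCGG stood in 9 of 12 regions, against 35.7% of 32851 regions of all genes. Each of the 7 genes had at least 1 such region, but the share per gene over all genes was not computed. Some regions of the same gene overlap, so the 12 are not separate. Their GC content ran from 48.7% (Fbln5) to 78.3% (Efemp2), against a median of 52.7% over all regions. Its part in the matches was not tested. TATAAA stood in 0 of 12 (13.6% of all) and TGAGTCA, the AP-1 site, in 0 of 12 (5.20% of all), both searched on both strands, which says only that these letters are not in these windows.

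The spread between libraries differed from gene to gene. The quasi-likelihood test of edgeR, run on 13289 genes with adjustment over all of them, compared 1 library with the remaining pair, for each in turn. It called 0 of the 10 genes in each of the 3 comparisons and 0 genes in the whole table (0% called), with 511, 659 and 674 genes at an unadjusted p under 0.05. DESeq2's Wald test gave an adjusted p to 11228, 11485 and 12258 genes for libraries 1, 2 and 3, but not to Fbn2 in library 1. With DESeq2, unlike the main edgeR run, some genes of the whole table were called in each comparison, though none of the 10. A p above the threshold does not show that the libraries were alike, and a lone library is assumed here to vary like the others. As a description, the highest library exceeded the lowest by a median of 1.20-fold over the 9 detected genes. The same median was 1.93-fold over all 9515 detected genes and 1.52-fold over the 3323 of them with a mean CPM at least as high as that of Efemp2. That cut lies at 50.9 CPM, while the median of the 10 genes was 556 CPM, so these sets are not matched in level.

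Fbn1, Fbln1, Mfap5 and Eln had the narrowest spread, at 1.11, 1.11, 1.16 and 1.16-fold from lowest to highest library. Mfap2 had the widest of the detected genes (2.02-fold), followed by Efemp2 (1.62-fold) and Fbln5 (1.61-fold). Fbln5 in library 1 was the only gene of the 10 with an unadjusted p under 0.05 in edgeR (log2 fold change -0.64 with a standard error of 0.26, adjusted p = 0.99). Fbln2, Fbln5 and Efemp2 were lowest in library 1 and highest in library 3. Mfap2 and Eln were the reverse, highest in library 1 and lowest in library 3.

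**Figure D3:**
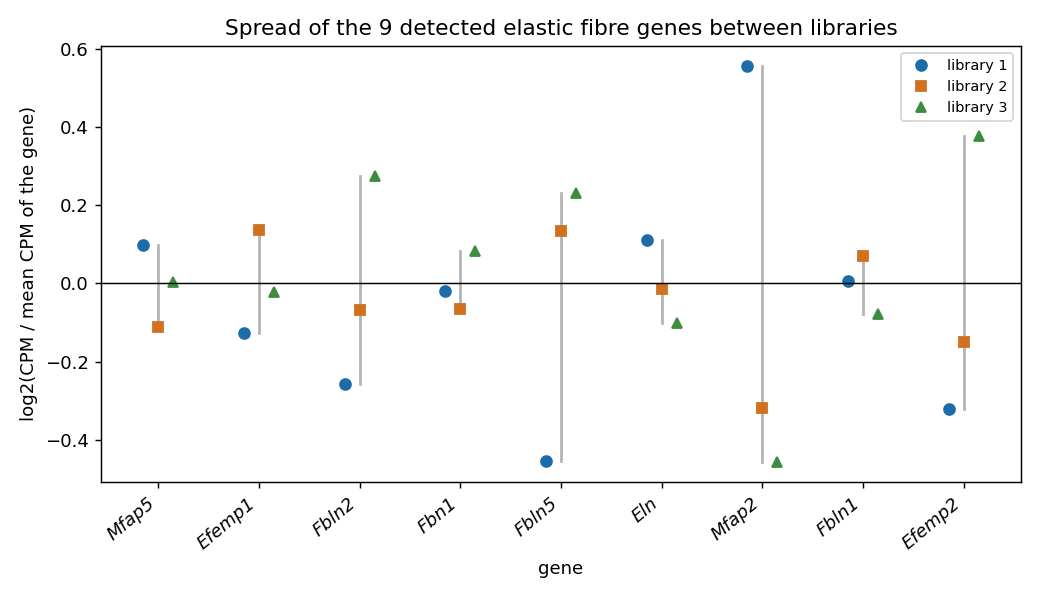
CPM of each of the 9 detected genes in each library relative to the mean of that gene (log2 scale), with 1 point per library and a line from the lowest to the highest. Mfap2 has the longest line (2.02-fold), and Fbn1 and Fbln1 the shortest (1.11-fold each).

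Of 56 genes known to build, process, hold or degrade these fibres, 37 (66.1%) were detected, against 35.0% of all genes and 43.7% of protein-coding genes. The median of all 56 was 32.5 CPM. Among enzymes that crosslink elastin and genes that serve them, 9 of 11 (81.8%) were detected. Loxl1, whose product is the lysyl oxidase-like enzyme that keeps elastic fibres in adult mice, had 497, 534 and 622 CPM. Per kilobase it stood at 167 ± 19.5, above Lox, the founding lysyl oxidase gene, at 23.1 ± 11.9, in each library. Lox itself had 151, 135 and 45.4 CPM. Library 3 was the low one, and its difference did not pass (log2 fold change -1.65 with a standard error of 0.44, adjusted p = 0.89, edgeR's quasi-likelihood test). Loxl2 had 119 ± 27.9, Loxl3 34.9 ± 6.56 and Loxl4 10.2 ± 3.42 CPM. Atox1 and Atp7a, which hand copper to such enzymes, stood at 513 ± 134 and 49.6 ± 17.8 CPM. Bmp1, a protease that activates lysyl oxidase, had 183 ± 46.2 CPM, and Furin, which trims the fibrillin precursor and so releases asprosin, had 13.8 ± 2.69 CPM. The related proteases Tll1 and Tll2 had 10 counts and 1 count in all.

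Of 22 proteins that bind microfibrils or guide their assembly, 15 (68.2%) had detected genes. Fn1, the fibronectin gene whose fibrils precede those of fibrillin, had 3875, 4993 and 4941 CPM. Ltbp4, which places elastin on microfibrils together with fibulins, had 831, 984 and 986 CPM, and Ltbp1, which stores latent TGF-beta, had 765, 712 and 649 CPM. Per kilobase of exon Ltbp4 (144 ± 13.7) stood above Ltbp1 (66.3 ± 5.43) in 3 of 3 libraries, and Ltbp1 lay near Eln (68.5). Eln stood at 144 with the length of its longest transcript, and other lengths were not tried for Ltbp1 and Ltbp4. Emilin2, which encodes an extracellular glycoprotein of the EMILIN family, had 309, 462 and 577 CPM, with library 3 the highest.

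The 7 undetected genes of that list were mostly near 0, but some stood high in 1 or 2 libraries. Adamtsl2, whose product binds fibrillin-1 and Ltbp1, had 0, 0 and 223 counts. Ltbp2, whose product binds fibrillin-1 but not latent TGF-beta, had 175, 167 and 0 counts. Emilin3, Thsd4, Mmrn1, Mmrn2 and Adamts17 had 25, 22, 5, 4 and 4 counts over the 3 libraries. For Adamtsl2 and Ltbp2 in library 3 edgeR's quasi-likelihood test gave an adjusted p of 0.89, so neither difference passed.

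Other fibulin-like genes were all detected. Hmcn2, a giant relative of the fibulins, had 136, 238 and 380 CPM, Hmcn1 57.5 ± 12.0 and Fbln7 31.4 ± 4.66 CPM. The summed level of these 3 genes was 223 CPM in library 1, 317 in library 2 and 481 in library 3.

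Of 9 genes of proteases that can cut elastin, 3 (33.3%) were detected, a share near that of all genes. Ctsl had 1536 ± 168 CPM, the gelatinase gene Mmp2 had 573 ± 75.4 and Ctsk had 112 ± 26.7. The 6 undetected genes were below 1 CPM in every library, except Mmp9, which had 6.65 CPM in library 1. Mmp12, the macrophage elastase gene, had 2 counts in all, Elane, the neutrophil elastase gene, had 0, and Ctss and Mmp7 had 7 and 3. Prtn3 had 18 counts, 17 of them in library 1, and Mmp9 had 211, 1 and 0 counts.

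The growth factors that microfibrils store and the integrins that read fibulin-5, MAGP-2 and fibrillin-1 had 7 of 11 genes (63.6%) detected. The integrin genes Itgb1, Itgav, Itgb5 and Itga5 had 469 ± 21.6, 444 ± 56.5, 107 ± 45.5 and 84.8 ± 11.2 CPM. Per kilobase they stood at 115 ± 5.30, 41.3 ± 5.26, 30.0 ± 12.8 and 17.2 ± 2.27. Itgb3 had 33.5 ± 8.48 CPM. Tgfb3 and Tgfb2 had 22.6 ± 14.4 and 20.8 ± 12.1 CPM, both highest in library 1. Tgfb1 had 0.788, 1.07 and 2.46 CPM and so missed the threshold in library 1. Itgb6 had 0, 149 and 0 counts, Itgb8 92, 6 and 1, and Itga8 52, 174 and 1.

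**Figure D4:**
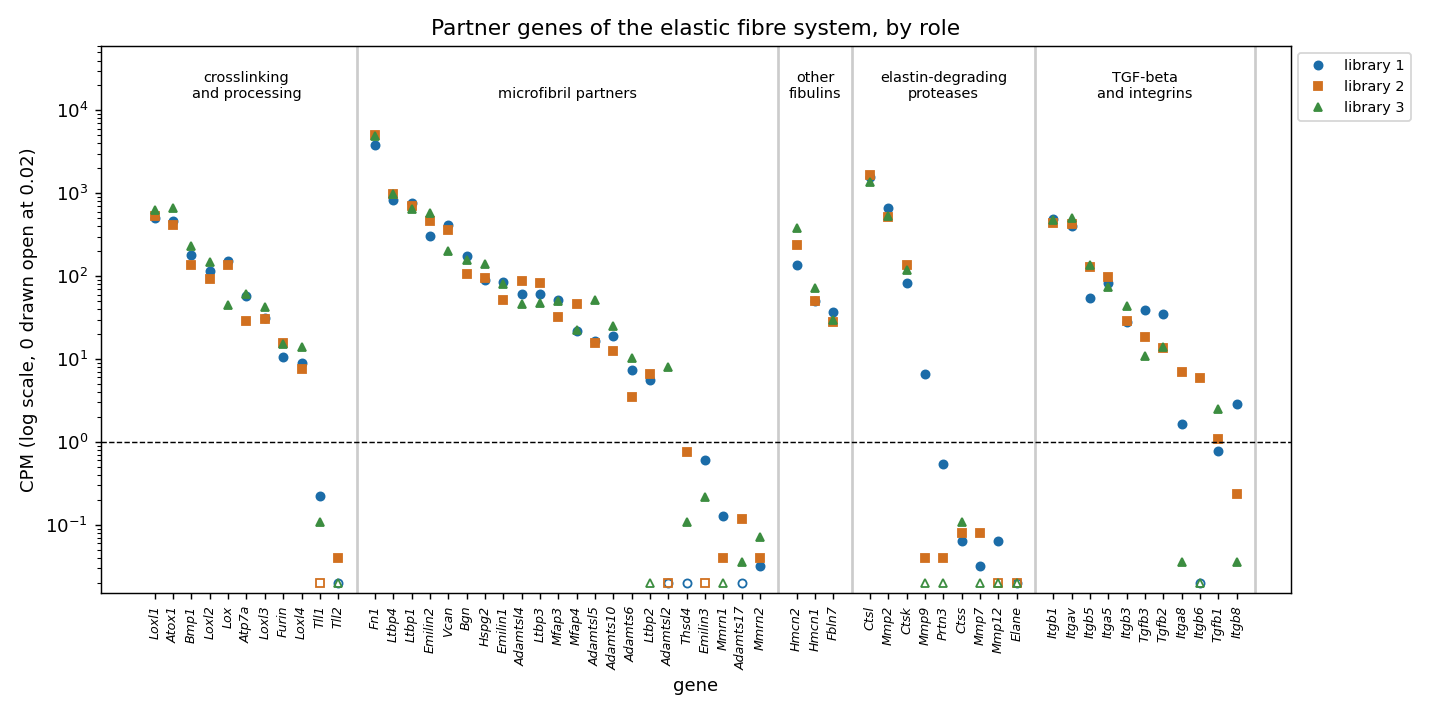
CPM of 56 partner genes in each library (log axis), grouped by role and ordered by mean CPM, with open symbols at the bottom for 0 counts and a dashed line at 1 CPM. Of these genes, 37 lie above the line in every library, among them 9 of 11 crosslinking and processing genes and 3 of 9 protease genes.

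Overlap with other genes bears on some of these values, since the sources used here do not say whether the counting used strand. No 50-base stretch of a transcript of the 10 genes occurred in a transcript of another of the 10. Stretches of Efemp1, Fbln1, Fbln2, Fbln5, Mfap2 and Mfap5 occurred in no other gene at all. For Fbn1, 19.7% of its stretches lay in Gm9913, a gene model on the opposite strand, and for Efemp2 2.92% lay in Mus81, its neighbour on the opposite strand, which had 183, 113 and 35 counts. For Eln 2.82% and for Fbn2 0.608% of stretches were shared. The part of these overlaps in the counts was not tested.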

How the data were processed

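Few-cell RNA was turned into amplified cDNA libraries with a Clontech SMARTer Ultra Low Input kit, per the labels' protocols. The authors deposited raw counts for each gene ID. Tools named in the submitters' processing notes are STAR 2.3.0 and CASAVA 1.8.2, with build mm10. How reads were counted, and whether by strand, is not given in the sources used here. Symbols and coordinates were taken from RefSeq of the same assembly (GRCm38.p6), which matched 25275 IDs. Lengths came from GENCODE M21, for 21573 genes.

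TMM scaling and tests ran in edgeR 4.0.16 under R 4.3.3. A pseudocount of 0.5 preceded logs, which understates differences of low genes. Standard errors of fold changes were the fold change over the root of F. Sign-flip tests used scipy 1.17.1. The quasi-likelihood test covered genes with 10 counts or more in at least 1 library and was tested on simulated data. DESeq2 1.42.0 was an alternative. Members, lists, pairs and tests were chosen with earlier results of these data known. Named genes were the 10 members, up to 4 genes of highest mean CPM in each partner list, undetected genes and any needed for a count. Lox, Loxl3, Loxl4, Atp7a, Furin, Itgb3, Tgfb2 and Tgfb3 were named beyond this rule, with their values known. Alternatives were detection thresholds, size factors, pseudocounts, lengths, filters, DESeq2 and leaving out each library.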

Additional observations from a re-analysis of the deposited data

How the results depend on the processing

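Of the 10 genes, 9 were detected at thresholds of 0.5, 5 and 20 CPM and with DESeq2 size factors, and 9 to 10 when 1 library was left out. The 10th, Fbn2, came in without replicate 3. The partner lists had 30 to 38 of 56 genes detected under the other thresholds and 37 to 39 when 1 library was left out. Of all 27179 genes, 9942, 7703 and 4735 were detected at 0.5, 5 and 20 CPM and 9515 with DESeq2 size factors. Leaving out 1 library gave 9912 to 10008. Fbln5 minus Eln reversed to -0.021 without length correction and to -0.62 with the longest transcript. The other 7 pairs kept their direction under the pseudocounts, lengths, size factors and left-out libraries tried. None of the 10 genes was called between libraries under any alternative run. The filter of 1 CPM in every library left Fbn2 out of the test, and DESeq2 gave it no adjusted p in library 1. Over all genes, the calls were a small part of the genes tested in every run, so their absence among 10 genes says little about these genes. More genes were called with DESeq2 or without a filter on low counts than in the main run, and the cause was not tested. Leaving out a library leaves no replicate for the test between libraries, so this was not run. Samples could not be paired between groups, because the series has 1 group.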
